A study of Mus musculus with 5 samples.

Results

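The inducible heat shock genes examined here are Hspa1a, Hspa1b, Hsph1, Dnajb1, Hspb1, Hspa8, Hsp90aa1, Hspe1, Hspd1 and Bag3, chosen by gene symbol. Each of the 10 symbols matched 1 of the 56691 gene IDs in the count table, and all 10 passed the filter on low counts that left 18583 genes to test. They were measured by RNA sequencing in keratinocytes from mouse back skin at 28 days of age. One group of 3 libraries (GFP replicates 1, 2 and 3) comes from cells sorted for GFP, labelled as epidermal stem cells with an Lrig1 positive genotype. The other group of 2 libraries (bulk replicates 1 and 2) comes from the unsorted population, labelled as epidermal basal cells with a WT genotype. The genotype label goes with the sorting in every library, so genotype and sorting cannot be told apart. The labels name no agent and no reporter construct, and do not say whether libraries within a group are from different animals. P-values therefore speak only for these libraries, and not for a spread between animals.

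Heat shock proteins are chaperones, proteins that help others to fold, keep them from clumping and pass damaged ones on for repair or breakdown. When proteins misfold, the transcription factor HSF1 forms a trimer, binds heat shock elements (inverted repeats of the short unit GAA) and raises transcription of these genes within minutes. In epidermis, HSPB1 is known as a protein of differentiating keratinocytes, and several of the others are also made without stress because growing cells need them.

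Libraries held 56829330 to 105887450 counts. GFP replicate 3 stood apart in sex-linked RNA, with 53714 counts of Xist against 0 to 8 in the other 4 libraries and 62 counts of Ddx3y against 1750 to 4462. It is also the library with no bulk partner, since bulk and GFP replicates 1 share title number 4143, replicates 2 share 4145, and GFP replicate 3 has 4146. The fit over all 5 libraries thus sets GFP libraries of both kinds of sex-linked RNA against bulk libraries of 1 kind. Lrig1 was at 163 and 155 CPM in bulk and at 210, 226 and 213 CPM in sorted libraries (CPM is the count relative to a fixed library total, here scaled by TMM, a method that equalises the bulk of genes between libraries). Its log2 change was 0.44 ± 0.18 (edgeR adjusted p = 0.292), and 0.45 in the blocked fit described below, where it was called (edgeR adjusted p = 0.00676). The basal keratin gene Krt5 was abundant in all libraries, at 8995 and 10390 CPM in bulk and 13390 to 18070 CPM in sorted cells. Scaled by library size alone, a list of 10 suprabasal genes summed to 23710 and 18540 CPM in bulk and to 8286 to 11520 CPM in GFP libraries. The summed markers of hair matrix, melanocyte, myeloid, T, red blood, fibroblast, endothelial and sebaceous cells were also lower in each GFP library than in each bulk library. Those of the hair matrix were at 1407 and 2853 CPM against 46.1 to 51.3 CPM. Those of fibroblasts were at 206 and 161 CPM in bulk and 156, 33.55 and 10.01 CPM in GFP 1, 2 and 3, so GFP 1 was close to bulk 2. No marker on these lists was at 0 in all 5 libraries. In mixed populations, fewer cells of a type and less RNA per cell cannot be told apart, and the part of cell makeup in the values below was not tested.

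The heat shock genes were abundant in both groups, and none passed the test of a difference between them over all 5 libraries. Together they took 0.640 and 0.662 percent of the counts in bulk libraries and 0.599, 0.767 and 0.835 percent in GFP libraries. Of the 10 genes, 0 were called at an adjusted p under 0.05 (edgeR quasi-likelihood test, Benjamini-Hochberg over all genes), 1 had an unadjusted p under 0.05, and DESeq2 and limma-voom also called 0. Over all tested genes 5.28 percent were called, and 0.145 percent were called higher in sorted cells. The median log2 change of the 10 genes was 0.25, against 0.05 for all tested genes and 0.11 for tested genes with a mean over 50 CPM. Of the 10 changes, 8 were above 0. With the shared title number as a replicate block, a fit that compares GFP 1 with bulk 1 and GFP 2 with bulk 2 and takes nothing from GFP 3, 6 of the 10 were called higher (Hspa1a, Hspa1b, Dnajb1, Hspa8, Hspe1 and Bag3) and 0 lower. In that fit 16.4 percent of all tested genes were called higher and 19.7 percent lower. The same 6 were called after a further correction for transcript length and GC content, where 15.6 percent of genes were called higher and 15.3 percent lower. The labels do not state that the title number names an animal, and they give the bulk and GFP libraries of a number different genotypes. The block leaves 1 residual degree of freedom. Its SE was 0.142 for both Hsph1 and Hspe1, though their log2 differences in the 2 pairs were -0.005 and -0.431, and 0.623 and 0.694. The SE and p-values of the blocked fit thus rest mainly on a spread shared across genes, not on that between a gene's own pairs.

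**Figure D1:**
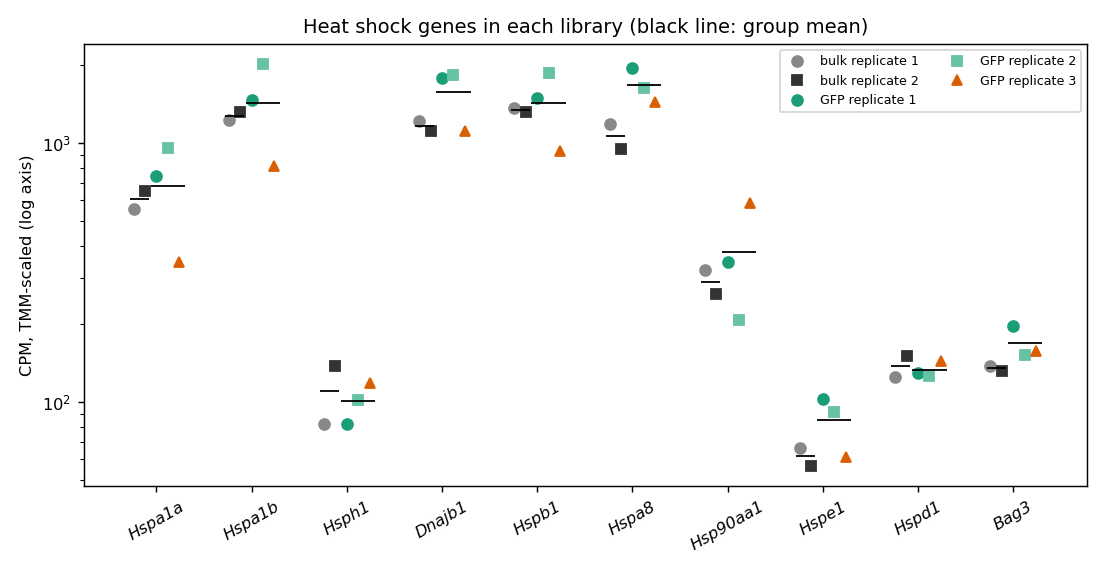
Level of each heat shock gene in each library, in TMM-scaled CPM on a log axis, with each point a library and each black line a group mean. GFP replicate 3 lies below the other 4 libraries for Hspa1a, Hspa1b, Dnajb1 and Hspb1 and above them for Hsp90aa1, at 584 CPM.

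Hspa1a and Hspa1b encode the stress-induced HSP70, the chaperone that binds exposed stretches of unfolded proteins. Hspa1a (ENSMUSG00000091971.4) was at 557 and 655 CPM in bulk replicates 1 and 2, and at 747, 958 and 347 CPM in GFP replicates 1, 2 and 3. Hspa1b (ENSMUSG00000090877.4) was at 1225 and 1317 CPM in bulk and at 1466, 2016 and 815 CPM in GFP libraries. For both genes GFP 1 and 2 lay above both bulk libraries and GFP 3 below them, so the groups overlapped. The log2 differences were 0.18 ± 0.40 for Hspa1a and 0.17 ± 0.38 for Hspa1b (± SE, n = 3 GFP and 2 bulk; edgeR adjusted p = 0.872 and 0.867). The 95 percent interval for Hspa1a ran from a 0.599-fold to a 2.13-fold level in sorted cells. Without GFP replicate 2 the differences were -0.15 and -0.16, and without GFP replicate 3 they were 0.49 and 0.45, none of them called. With the replicate block they were 0.49 ± 0.16 and 0.44 ± 0.16 (edgeR adjusted p = 0.00676 and 0.0255).

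The pair are near-copies of each other. Of all stretches of 50 bases in the longest Hspa1a transcript, 60.3 percent also occur in transcripts of other genes, and Hspa1b is the gene that shares the most of them. The ratio of Hspa1b to Hspa1a counts stayed between 1.96 and 2.35 in the 5 libraries, and how shared reads were assigned is not given in the sources used here. Their sum was 1782 and 1972 CPM in bulk and 2213, 2975 and 1162 CPM in GFP libraries. Fitted as 1 row, the sum differed by 0.17 (edgeR adjusted p = 0.872), and by 0.45 with the replicate block (edgeR adjusted p = 0.0253). The promoter windows below show how alike the copies are upstream too. They are RefSeq sequences (GRCm38.p6; the count table is on GRCm39) from 250 bases before to 50 bases after the annotated start, minus strand, at chr17:34972107-34972406 for Hspa1a and chr17:34959189-34959488 for Hspa1b, with runs of alternating GAA and TTC units in capitals.
Hspa1a: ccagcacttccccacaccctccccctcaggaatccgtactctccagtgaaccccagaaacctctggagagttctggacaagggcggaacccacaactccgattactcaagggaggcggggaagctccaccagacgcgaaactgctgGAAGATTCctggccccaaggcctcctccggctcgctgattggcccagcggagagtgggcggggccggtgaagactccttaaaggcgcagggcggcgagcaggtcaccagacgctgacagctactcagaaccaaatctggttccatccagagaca
Hspa1b: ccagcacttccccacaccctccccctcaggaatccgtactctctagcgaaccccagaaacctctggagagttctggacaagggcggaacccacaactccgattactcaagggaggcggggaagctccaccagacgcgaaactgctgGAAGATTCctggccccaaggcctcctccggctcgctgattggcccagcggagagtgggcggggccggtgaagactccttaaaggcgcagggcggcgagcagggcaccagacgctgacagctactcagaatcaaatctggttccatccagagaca
The windows differ at 4 of 300 positions, C44T, T47C, T249G and C276T (the Hspa1a base, the position from the 5′ end of the window, the Hspa1b base). Both hold 1 run of 2 units, beginning 104 bases before the start.

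Heat shock elements were searched as runs of GAA and TTC units in alternation with any 2 bases between neighbours, so that a run of 2 units is GAANNTTC or TTCNNGAA. Each of these forms is its own reverse complement, and a longer run contains the shorter ones. Of 32851 promoter windows in the RefSeq table, 15.1 percent held a run of 2 or more units, 0.603 percent held 3 or more and 0.0244 percent held 4 or more. Windows were found for 8 of the 10 genes, not for Hspa8 and Hsp90aa1. A run of 2 or more units was present for 7 of the 8 genes and a run of 3 or more for Hsph1, Hspe1 and Hspd1. Counted by window, as those shares are, 8 of 11 windows held 2 or more units and 4 held 3 or more. These windows are not independent, since those of Hspa1a and Hspa1b are near-copies, those of Hsph1 overlap, and Hspe1 shares its run with the second Hspd1 window. The first Hspd1 window held no run. The windows of Dnajb1, from 2 annotated starts, held neither form. A match describes letters only, and an absence covers only exact units within the 300 bases of a window. No binding was measured.

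**Figure D2:**
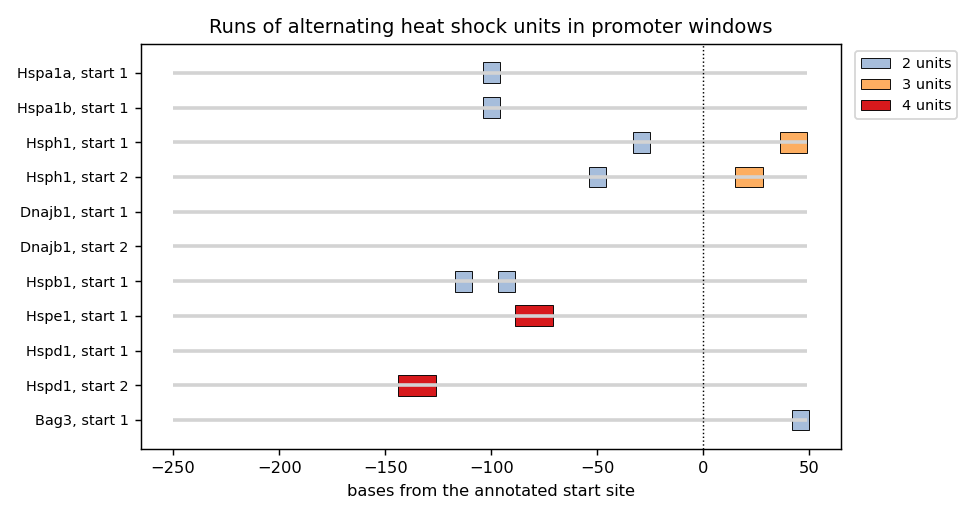
Positions of runs of 2, 3 or 4 alternating GAA and TTC units in the promoter windows of 8 heat shock genes, in bases from each annotated start (dotted line), with 1 row per start. The 4-unit run of Hspe1 and that of the second Hspd1 start are the same stretch read from opposite strands.

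Hspa8 encodes HSC70, the HSP70 that cells make without stress, which also strips clathrin from vesicles and takes part in chaperone-mediated autophagy. Hspa8 (ENSMUSG00000015656.18) was at 1181 and 947 CPM in bulk and at 1940, 1637 and 1444 CPM in GFP libraries. All 3 GFP libraries lay above both bulk libraries, and GFP 1 was the highest. The log2 difference was 0.65 ± 0.27, a 1.57-fold level in sorted cells with a 95 percent interval from 1.03-fold to 2.41-fold. This was the largest of the 10 differences in that fit, and it did not pass over all genes (unadjusted p = 0.0392; edgeR adjusted p = 0.280). With the replicate block it was 0.75 ± 0.17 (edgeR adjusted p = 4.48e-05), and 0.70 ± 0.16 with the length and GC correction too (edgeR adjusted p = 0.00167). The table also holds Gm15459, the gene with the most 50-base stretches in common with Hspa8, at 13.4 to 14.2 percent of the Hspa8 count in each library. Summed with it, Hspa8 differed by 0.65 (edgeR adjusted p = 0.289), and by 0.75 with the block (edgeR adjusted p = 5.72e-05).

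Hspa8 and Bag3 were the 2 of 10 genes with every GFP library above both bulk libraries, and 0 of 10 had every GFP library below. Over all tested genes, with no floor on their level, these shares were 14.6 and 18.5 percent. Bag3 encodes a cochaperone that releases clients from HSP70 and steers damaged proteins, such as those of the stretched cytoskeleton, to autophagy. It (ENSMUSG00000030847.9) was at 137 and 132 CPM in bulk and at 197, 151 and 158 CPM in GFP libraries. GFP 1 was the highest, and GFP 2 was the GFP library closest to bulk. Bag3 differed by 0.32 ± 0.20 on the log2 scale (edgeR adjusted p = 0.505), or 0.36 ± 0.14 under the replicate block (edgeR adjusted p = 0.0364).

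Hsph1 and Dnajb1 encode partners of HSP70. HSP110, the product of Hsph1, swaps the nucleotide that HSP70 holds, and DNAJB1, an HSP40, delivers clients and starts ATP hydrolysis. Dnajb1 (ENSMUSG00000005483.11) was at 1218 and 1115 CPM in bulk and at 1779, 1831 and 1112 CPM in GFP libraries. GFP 1 and 2 lay above bulk and GFP 3 just below it. The log2 difference was 0.43 ± 0.30 (edgeR adjusted p = 0.546), 0.62 without GFP replicate 3 (edgeR adjusted p = 0.127), or 0.63 ± 0.17 under the replicate block (edgeR adjusted p = 7.496e-04). Hsph1 (ENSMUSG00000029657.16) was at 82.2 and 138 CPM in bulk and at 81.9, 102 and 118 CPM in GFP libraries. Its GFP values lay within the span of the bulk values but for GFP 1, which was level with bulk 1. For Hsph1 this difference was -0.13 ± 0.27 (edgeR adjusted p = 0.863) and -0.22 ± 0.14 with the block (edgeR adjusted p = 0.231). It was 0.28 without bulk replicate 2, the library with the highest Hsph1 level. Hsph1 is shown because its window (chr5:149636287-149636586, GRCm38.p6, minus strand) has a run of 3 units after the start, with a run of 2 units before it. Any bearing of these runs on the Hsph1 level was not tested.
Hsph1: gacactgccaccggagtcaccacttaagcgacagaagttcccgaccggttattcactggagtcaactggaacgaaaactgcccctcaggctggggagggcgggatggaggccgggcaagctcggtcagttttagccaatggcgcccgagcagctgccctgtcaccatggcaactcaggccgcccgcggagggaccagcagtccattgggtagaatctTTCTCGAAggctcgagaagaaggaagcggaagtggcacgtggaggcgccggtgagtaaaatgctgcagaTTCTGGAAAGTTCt
Its runs begin 33 bases before and 36 bases after the first annotated start.

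Hspb1 encodes HSP27 (HSP25 in the mouse), a small heat shock protein that holds unfolding proteins without using ATP and binds actin. Per kilobase of transcript it was the most abundant of the 10, at 1441 CPM per kilobase in bulk and 1539 in sorted cells on average, and it ranked between 28 and 51 among genes with a known length in the 5 libraries. Hspb1 (ENSMUSG00000004951.11) was at 1369 and 1311 CPM in bulk and at 1494, 1868 and 932 CPM in GFP libraries. As for Hspa1a and Hspa1b, GFP 2 was the highest and GFP 3 the lowest, and the groups overlapped. The log2 difference was 0.10 ± 0.33 (edgeR adjusted p = 0.918), or 0.32 ± 0.17 under the replicate block (edgeR adjusted p = 0.119). The sign was not stable, at -0.14 without GFP replicate 2, -0.05 with library size scaling and -0.08 after the length and GC correction. At 930 bases Hspb1 is the shortest of the 10 transcripts. Of its 50-base stretches, 51.6 percent occur in other transcripts, and Hsp25-ps1, the gene that shares the most, had 1360 counts over all libraries. The suprabasal list, scaled by library size alone, summed to less in every GFP library than in either bulk library. The part of cell makeup in the Hspb1 level was not tested. The window of Hspb1 (chr5:135887669-135887968, GRCm38.p6, plus strand) has a pair of separate runs of 2 units, beginning 117 and 97 bases before the start. It is shown because its gene had the profile most like the HSP70 pair outside that pair. Any bearing of the runs on that profile was not tested.
Hspb1: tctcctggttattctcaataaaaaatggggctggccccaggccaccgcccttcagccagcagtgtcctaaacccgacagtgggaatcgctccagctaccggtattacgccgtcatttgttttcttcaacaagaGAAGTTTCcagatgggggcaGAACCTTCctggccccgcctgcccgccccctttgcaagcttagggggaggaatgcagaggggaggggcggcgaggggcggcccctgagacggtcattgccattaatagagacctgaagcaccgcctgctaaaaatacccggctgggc
The root mean square distance between the centred log2 profiles over 5 libraries was 0.112 for Hspa1b and Hspb1 and 0.0927 for Hspa1a and Hspa1b. The smallest distance between any 2 of the 10 genes was that of Dnajb1 and Hspe1, at 0.0786.

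Hsp90aa1 encodes the inducible HSP90, which matures kinases, steroid receptors and other signalling proteins and keeps HSF1 inactive at rest. Hsp90aa1 (ENSMUSG00000021270.14) was at 323 and 260 CPM in bulk and at 347, 208 and 584 CPM in GFP libraries. Its order in the sorted group was the opposite of that of the HSP70 pair, with GFP 3 the highest of the 5 libraries and GFP 2 the lowest. Hsp90aa1 differed by 0.38 ± 0.40 on the log2 scale (edgeR adjusted p = 0.700). This difference was -0.08 without GFP replicate 3 and -0.11 ± 0.15 with the replicate block (edgeR adjusted p = 0.606). Hsp90aa1 had the highest ratio of the 10 between its highest and lowest GFP library, 2.81, followed by Hspa1a at 2.76 and Hspa1b at 2.48. Its distance from Hspa1a, 0.966, was the largest between any 2 of the 10 genes. Of its 50-base stretches, 58.5 percent occur in other transcripts, and Gm12346, the gene that shares the most, had 244 counts over all libraries.

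Hspd1 and Hspe1 encode HSP60 and HSP10, the barrel and the lid of the chaperonin that folds proteins inside mitochondria. Hspe1 (ENSMUSG00000073676.5) was at 66.6 and 56.5 CPM in bulk and at 103, 91.4 and 61.5 CPM in GFP libraries. GFP 1 and 2 lay above bulk, and GFP 3 lay between the bulk values. The log2 difference was 0.47 ± 0.25 (edgeR adjusted p = 0.429), or 0.66 ± 0.14 under the replicate block (edgeR adjusted p = 3.15e-05). Hspe1 is short (964 bases), and the length and GC correction alone lowered its difference to 0.22 ± 0.20 (edgeR adjusted p = 0.659). With the block and the correction it was 0.39 ± 0.12 (edgeR adjusted p = 0.0173). Hspd1 (ENSMUSG00000025980.15) was at 125 and 150 CPM in bulk and at 130, 126 and 144 CPM in GFP libraries. All 3 GFP values lay between the bulk values, and this was the steadiest of the 10 genes in sorted cells, with a ratio of 1.145 between its highest and lowest GFP library. Its log2 difference was -0.05 ± 0.19, with a 95 percent interval from 0.716-fold to 1.31-fold (edgeR adjusted p = 0.927), and -0.10 ± 0.14 with the block (edgeR adjusted p = 0.615).

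The chaperonin pair lie head to head, and the Hspe1 window is shown because it overlaps most of an Hspd1 window. The Hspe1 start lies 216 bases from the second annotated Hspd1 start, which is read from the other strand, and their windows share 285 bases. The Hspe1 window is at chr1:55087898-55088197 (GRCm38.p6, plus strand), and its run of 4 units, in capitals, begins 89 bases before the Hspe1 start.
Hspe1: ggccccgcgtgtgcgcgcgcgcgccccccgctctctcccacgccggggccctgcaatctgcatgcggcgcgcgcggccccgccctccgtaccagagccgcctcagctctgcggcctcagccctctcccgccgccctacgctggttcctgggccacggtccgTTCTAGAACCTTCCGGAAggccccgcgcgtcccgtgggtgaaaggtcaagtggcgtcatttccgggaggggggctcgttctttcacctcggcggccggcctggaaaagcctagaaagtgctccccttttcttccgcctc
The ratio of Hspd1 to Hspe1 counts was not constant over libraries. It was 1.88 and 2.66 in bulk and 1.26, 1.37 and 2.34 in GFP replicates 1, 2 and 3. Of the 50-base stretches of the Hspd1 transcript, 44.8 percent occur in other transcripts, and Hspd1-ps3, the pseudogene that shares the most, had 108 counts over all libraries.

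**Figure D3:**
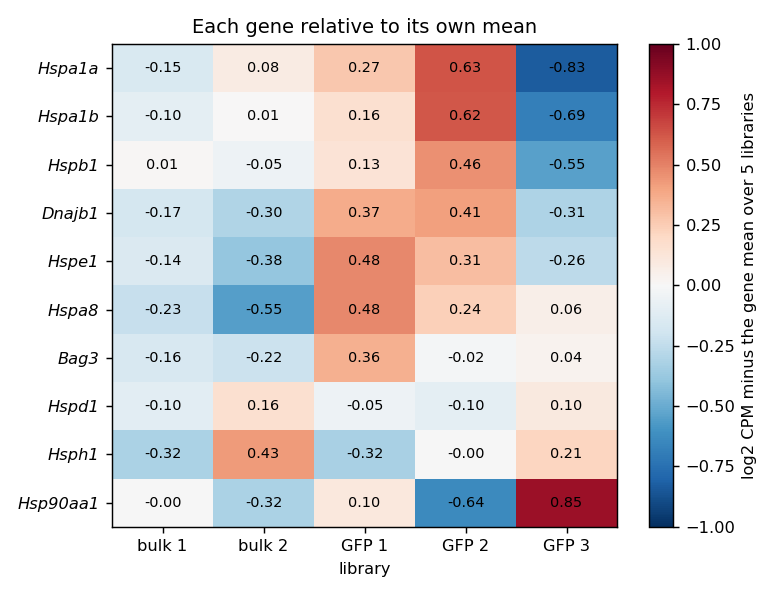
Log2 CPM of each heat shock gene minus its own mean over the 5 libraries, with rows ordered so that genes with like values are neighbours and colours from blue (below the mean) to red (above). GFP 2 and GFP 3 have opposite signs for Hspa1a (0.63 and -0.83) and, in the other direction, for Hsp90aa1 (-0.64 and 0.85).

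The heat shock genes varied among the sorted libraries. Of the 10 genes, 4 (Hspa1a, Hspa1b, Dnajb1 and Hspb1) were highest in GFP 2 and lowest in GFP 3 of all 5 libraries. This pattern was seen in 3.44 percent of all tested genes, with no floor on their level. Dnajb1 met it narrowly, at 1112 CPM in GFP 3 against 1115 CPM in bulk 2. For 4 of the 10 (Hspa1a, Hspa1b, Hspb1 and Hsp90aa1) the highest GFP library was at least 2 times the lowest, against 8.97 percent of tested genes with a mean over 50 CPM. Hspb1 met this cut narrowly, with a ratio of 2.005. Both patterns were picked after the values were seen, and both include the near-copies Hspa1a and Hspa1b. The median ratio of highest to lowest GFP library was 1.66 for the 10 genes and 1.37 for tested genes over 50 CPM. Between the bulk libraries it was 1.18 and 1.17. No label ties GFP 2 or GFP 3 to a date or handling step, and sex-linked RNA, title number and library cannot be told apart for GFP 3.

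Libraries with the same title number were also compared directly. GFP 1 was above bulk 1 for 9 of the 10 genes and GFP 2 above bulk 2 for 7, with 7 above in both. Over all tested genes, with no floor on their level, 38.5 percent were above in both pairs. Hspa8 had the largest differences, 0.72 and 0.79 on the log2 scale, followed by Hspe1 (0.62 and 0.69) and Dnajb1 (0.55 and 0.72). Bag3 (0.52 and 0.20), Hspa1a (0.42 and 0.55), Hspa1b (0.26 and 0.61) and Hspb1 (0.13 and 0.51) were also above in both. Hsph1, at -0.01 and -0.43, Hsp90aa1, at 0.10 and -0.32, and Hspd1, at 0.05 and -0.26, were not. These are 2 differences with no replicate of their own.

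**Figure D4:**
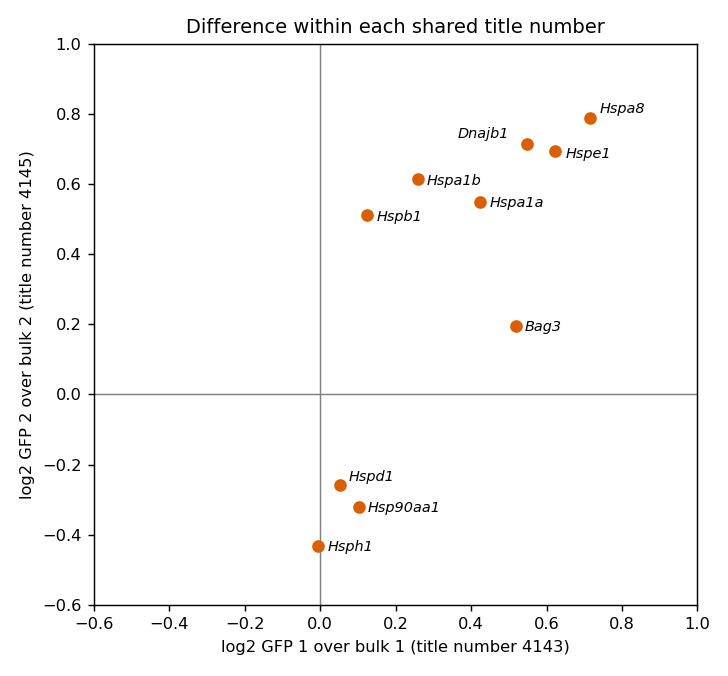
Log2 ratio of GFP to bulk within title number 4143 (horizontal) and within 4145 (vertical), each point a heat shock gene. The 7 genes above 0 on both axes include Hspa8 at 0.72 and 0.79, while Hsph1, Hspd1 and Hsp90aa1 lie below 0 on the vertical axis.

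**Figure D5:**
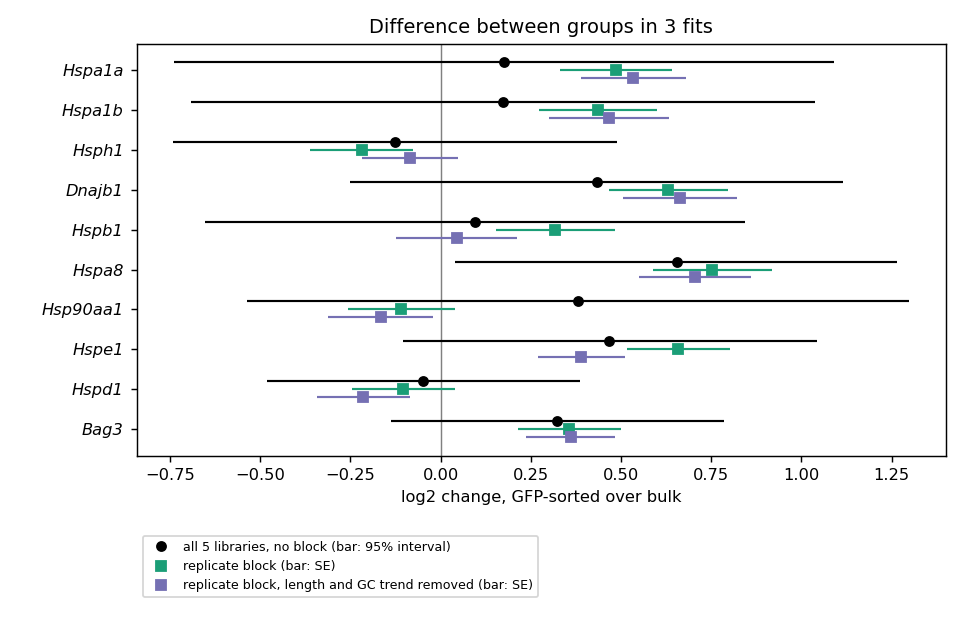
Log2 change of each heat shock gene, GFP-sorted over bulk, in 3 fits: all 5 libraries with no block (black, bars are 95 percent intervals), the replicate block (green, bars are SE) and the block with the length and GC correction (purple, bars are SE). The black interval of every gene but Hspa8 includes 0, and the block estimates of Hsp90aa1 have the opposite sign to its estimate without the block.

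The genes elsewhere in the table whose profile over the 5 libraries lay closest to the mean profile of the heat shock genes were Gpd1l, Pacsin3, Chd1l, Tnfrsf1a and Sil1, at root mean square distances from 0.0182 to 0.0234 on the log2 scale. The heat shock genes themselves lay at 0.150 (Bag3) to 0.589 (Hsp90aa1) from that mean. The mean profile, in log2 units from each gene's own mean, was 0.20 and 0.19 in GFP 1 and 2, -0.14 in GFP 3, and -0.14 and -0.12 in bulk 1 and 2.

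Genes of the wider chaperone network were put through the same fits. Of 88 related chaperone, cochaperone, stress response and regulator genes tested, 1 was called higher (against 0.145 percent of all tested genes) and 1 lower. Calls in either direction made up 5.28 percent of all tested genes. An unadjusted p under 0.05 was found for 11 of the 88, and its share over all genes was not worked out. With the replicate block 29 were called higher (against 16.4 percent of all tested genes) and 7 lower (against 19.7 percent). The lists were chosen with results of these libraries known. Some genes stand on more than 1 list, such as Hspa5, Dnajb9, Hspb8 and Cryab, so the counts by list are not independent. Serpinh1, which encodes the collagen chaperone HSP47, was the gene called higher. It was at 86.0 and 84.6 CPM in bulk and at 155, 146 and 144 CPM in sorted cells, with the groups well apart. Its log2 change was 0.80 ± 0.18 (edgeR adjusted p = 0.0413). Leaving out either bulk library (edgeR adjusted p = 0.254 without bulk 1, 0.389 without bulk 2), GFP 1 (0.116) or GFP 2 (0.133) ended the call, as did library size scaling (0.0714). The gene called lower was Cryaa, a lens crystallin gene, near the floor of detection, with 12 and 39 counts in bulk and 0, 2 and 1 in GFP libraries (edgeR adjusted p = 0.0299). This call ended when bulk 1 (edgeR adjusted p = 0.105), bulk 2 (0.353) or GFP 1 (0.0566) was left out. Of the 7 other small heat shock protein genes 5 could be tested, and among them Hspb8, the partner of BAG3 in chaperone-assisted autophagy, was at 525 and 467 CPM in bulk and 744, 733 and 598 CPM in sorted cells (log2 change 0.48, edgeR adjusted p = 0.366; 0.58 with the block, edgeR adjusted p = 9.824e-04).

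The genes of the upstream factors were not called. Hsf1 was at 44.2 and 52.6 CPM in bulk and 51.9, 58.0 and 65.8 CPM in GFP libraries (log2 change 0.28, edgeR adjusted p = 0.559), and Hsf2 at 38.8 and 31.1 CPM against 29.9, 29.5 and 33.4 CPM (-0.175, edgeR adjusted p = 0.713). Hsbp1, which encodes an HSF1-binding protein, was called higher with the block (0.39, edgeR adjusted p = 0.0193) and not with the length and GC correction too (0.402). Messenger RNA of a factor does not measure its activity.

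Among 16 other heat-inducible HSF1 targets Serpinh1 was the call, and the median log2 change was 0.33. With the block 6 were called higher and 1 lower, against 16.4 and 19.7 percent of all tested genes. In this list Cryab, which encodes the small heat shock protein alpha-B crystallin, was at 10.1 and 10.4 CPM in bulk and 17.7, 15.1 and 13.1 CPM in sorted cells (edgeR adjusted p = 0.248; 2.905e-04 with the block). Zfand2a, which encodes a stress-induced partner of the proteasome, was at 42.4 and 35.9 CPM against 54.4, 49.1 and 64.9 CPM (edgeR adjusted p = 0.258; 0.0176 with the block). Both had every GFP library above both bulk libraries, as had 7 of the 16 genes in all, against 14.6 percent of all tested genes. In the list of 17 genes of the unfolded protein response of the endoplasmic reticulum 0 were called, 12 were fully above bulk and the median was 0.42. With the block 9 were called higher, or 5 with the length and GC correction too. Over all tested genes these shares were 16.4 and 15.6 percent. Manf, which encodes a secreted stress protein of that compartment, was at 83.1 and 64.0 CPM in bulk and 125, 120 and 102 CPM in sorted cells (log2 change 0.65, edgeR adjusted p = 0.152; 0.74 with the block). The transcription factor gene Xbp1 and the disulfide isomerase gene Pdia4 had log2 changes of 0.57 and 0.52 (edgeR adjusted p = 0.221 and 0.279; 7.296e-04 and 0.0267 with the block, and 0.0131 and 0.107 with the length and GC correction too).

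The other families had members in either direction, and 0 genes were called in each of the lists that follow. The 11 other HSP70 and HSP110 genes had log2 changes from -0.75 to 0.58, with 2 called higher and 2 lower under the block. Over all tested genes the block called 16.4 percent higher and 19.7 percent lower. Hspa12a, an atypical family member, was at 43.1 and 45.0 CPM in bulk and 20.5, 32.4 and 26.0 CPM in sorted cells (edgeR adjusted p = 0.132; 3.565e-06 with the block). Hspa2, known from male germ cells, was at 47.4 and 31.7 CPM against 33.0, 23.0 and 23.9 CPM (edgeR adjusted p = 0.329; 0.00471 with the block). Hspa5, the HSP70 of the endoplasmic reticulum, was at 1345 and 1352 CPM in bulk and 1677, 2287 and 2084 CPM in sorted cells (edgeR adjusted p = 0.340; 0.00585 with the block). Its GFP libraries all lay above bulk, with GFP 1 the lowest of them.

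Of 16 other DNAJ genes 4 were called higher and 1 lower under the block, against 16.4 and 19.7 percent of all tested genes. Those with the smallest p without it were Dnajb6 (log2 change 0.37, edgeR adjusted p = 0.414; 0.0182 with the block), Dnajb14 (-0.36, 0.430; 0.0538) and Dnajb11, of the endoplasmic reticulum (0.31, 0.461; 0.0673). The 6 other BAG and nucleotide exchange genes, which free clients from HSP70, had 1 call in each direction under the block, beside the same shares. Bag5 was at 21.5 and 25.9 CPM in bulk and 33.5, 41.6 and 38.5 CPM in sorted cells (edgeR adjusted p = 0.123; 8.591e-05 with the block). Bag2 was at 7.72 CPM in both bulk libraries and 5.002, 4.92 and 4.49 CPM in sorted cells (edgeR adjusted p = 0.173; 0.00217 with the block). Bag4 had a log2 change of -0.28 (edgeR adjusted p = 0.563; 0.301 with the block).

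Of 15 other HSP90 genes and cochaperones 1 was called higher and 2 lower under the block, against 16.4 and 19.7 percent of all tested genes. Fkbp5, a glucocorticoid-induced cochaperone gene, had a log2 change of -0.61 (edgeR adjusted p = 0.244; 0.00957 with the block). Ptges3, which encodes the cochaperone p23, had a log2 change of 0.32 (edgeR adjusted p = 0.443; 0.0828 with the block). Ahsa2, related to an activator of the HSP90 ATPase, was at 7.11 and 5.80 CPM in bulk and 7.79, 6.14 and 15.2 CPM in GFP libraries (edgeR adjusted p = 0.531; 0.672 with the block). As for Hsp90aa1, GFP 3 was its highest library and GFP 2 the lowest of the sorted ones. More genes were picked by this order after their values were seen. In this list Hsp90b1 (219, 192 and 423 CPM in GFP 1, 2 and 3), Chordc1 (17.7, 14.2 and 30.7 CPM), Ppid, Cacybp and Ptges3 had it too. Hsp90ab1 (3385, 2980 and 2637 CPM), Trap1, Stip1, Ahsa1, Cdc37, Fkbp4, Fkbp5, St13 and Stub1 did not. Outside this list, Dnaja1 (134, 105 and 201 CPM) and Dnajb4 (158, 114 and 263 CPM) also had it. Its share over all tested genes was not worked out.

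Of the 8 subunits of TRiC, the chaperonin of the cytosol, 4 were called higher with the block. With the length and GC correction too, 1 was called higher and 1 lower. Over all tested genes 16.4 percent were called higher with the block, and 15.6 percent higher and 15.3 percent lower with the correction too. Cct4, Cct5 and Cct2 had the smallest p without the block, with log2 changes of 0.42, 0.33 and 0.32 (edgeR adjusted p = 0.390, 0.544 and 0.570; 0.00503, 0.00844 and 0.0093 with the block). Of 10 mitochondrial chaperone and protease genes 3 were called higher with the block and 2 with the correction too, beside the same shares. The 3 called with the block alone were Grpel1, which encodes the exchange factor of mitochondrial HSP70, and the protease genes Clpx and Htra2, at 0.42, 0.31 and 0.29 without the block (edgeR adjusted p = 0.453, 0.568 and 0.622) and 0.59, 0.39 and 0.43 with it (edgeR adjusted p = 2.575e-04, 0.0202 and 0.0302).

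Immediate early genes, which cells also transcribe within minutes of handling, were given the same test. Of 10 such genes 0 were called and the median log2 change was 0.36. With the block 4 were called higher and 0 lower, against 16.4 and 19.7 percent of all tested genes. With the length and GC correction too 1 was called higher, against 15.6 percent. Their sum, scaled by library size, was 26950 and 37770 CPM in bulk and 28380, 38970 and 48580 CPM in GFP replicates 1, 2 and 3. GFP 3 was thus the highest library for this sum and, among the heat shock genes, for Hsp90aa1, and the lowest for Hspa1a, Hspa1b, Dnajb1 and Hspb1. Junb, Ier2 and Atf3 had the smallest p, with log2 changes of 0.70, 0.61 and 0.67 (edgeR adjusted p = 0.292, 0.323 and 0.355; 0.00607, 0.0104 and 0.00566 with the block). The part of cell isolation in the levels of either gene group was not tested.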

How the data were processed

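Total RNA was sequenced from 2 bulk and 3 GFP-sorted keratinocyte libraries. The authors deposited 1 table of raw counts per gene, aligned with STAR to GRCm39 per the submitters' processing notes. The sources used here do not name the counting tool, the strandedness or the handling of reads matching several genes. All columns matched a sample by name (0 did not). Gene symbols and transcript lengths come from the GENCODE M21 annotation (GRCm38), matched by Ensembl ID, and coordinates were used only with the RefSeq promoter table.

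Genes were kept by edgeR's filterByExpr (minimum count 10, minimum total 15), scaled by TMM, and tested GFP against bulk with edgeR 4.0.16 (R 4.3.3) quasi-likelihood fits with 3 residual degrees of freedom. P-values were adjusted by Benjamini-Hochberg over all 18583 genes, with calls at an adjusted p under 0.05. Alternatives were other scalings, other filters, robust dispersion, leaving out each library, a replicate block, a correction for transcript length and GC content (loess span 0.3 per library), summing near-identical copies, DESeq2 1.42.0 and limma-voom (limma 3.58.1). Summing Hspa8 with Gm15459 and combining either sum with the block were chosen after seeing the data. The block uses the title number, which bulk and GFP replicates 1 and 2 share. The labels do not say what it marks, and it was taken to name the animal. Bulk and GFP libraries that share a number carry different genotype labels, WT and Lrig1 positive, which that reading does not account for. Over 18263 genes, the difference between bulk 1 and 2 correlated with that between GFP 1 and 2 (r = 0.43, across genes, which are not replicates).

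The 10 genes and the related gene lists were chosen with earlier results of these data known. From each related list the called genes were named, filled up to 3 with those of the smallest p, also in the 2 lists that held a call. Exceptions are said to be picked after their values were seen. Profile likeness was the root mean square distance of centred log2 CPM, over genes with a mean log2 CPM above 3. Intervals are at 95 percent.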

Additional observations from a re-analysis of the deposited data

How the results depend on the processing

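With 2 bulk libraries, precision is set by the spread between libraries and not by depth, since the lowest count of any heat shock gene was 3984. None of the 10 genes was called under any alternative without the replicate block. With the block 6 were called, 6 with a length and GC correction added, 6 with Hspa8 and Gm15459 summed and 5 with Hspa1a and Hspa1b summed as 1. The cause of the change with the block was not tested, and that fit leaves out GFP replicate 3. The median log2 change of the 10 genes was 0.40 with the block, 0.38 with both block and correction, 0.11 with library size scaling, and 0.15 to 0.41 when 1 library was left out. Library size scaling moved the median of all tested genes from 0.05 to -0.07. Related genes called, immediate early genes included, numbered 2, but 40 with the block, 29 with the correction added, 5 with DESeq2, 1 with library size scaling, 1 with a minimum of 1 CPM, and 0 to 2 when 1 library was left out. Genes called overall numbered 982, but 1918 with no filter, 6692 with the block, 5586 with the correction added, 1498 with DESeq2, and 480 to 1205 when 1 library was left out. The lowest of these was without bulk replicate 2, and 523 were called without bulk replicate 1. The log2 change turned sign for Hspb1 (-0.048 with library size scaling and -0.084 with the correction alone) and for Hsp90aa1 (-0.109 with the block and -0.166 with the correction added). With 1 library left out it ran from -0.146 (without GFP replicate 2) to 0.487 (without GFP replicate 3) for Hspa1a, from -0.156 to 0.447 in the same order for Hspa1b, and from -0.143 to 0.321 in the same order for Hspb1. It ran from -0.447 (without bulk replicate 1) to 0.282 (without bulk replicate 2) for Hsph1, and was 0.003 without GFP replicate 1. For Hsp90aa1 it ran from -0.077 (without GFP replicate 3) to 0.675 (without GFP replicate 2), and for Hspd1 from -0.171 (without bulk replicate 1) to 0.078 (without bulk replicate 2). The cause of these changes was not tested.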
